A study of Homo sapiens with 5 samples.

Results

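The cytosolic heat shock chaperones and the chaperonin TRiC were followed as a group of 40 genes, fixed by gene symbol, among 18257 gene symbols in a table of poly(A) RNA read counts. They comprise 2 heat shock factors, 12 heat-inducible chaperones, 18 mostly constitutive chaperones and co-chaperones, and the 8 TRiC subunits TCP1, CCT2, CCT3, CCT4, CCT5, CCT6A, CCT7 and CCT8. HSPD1, HSPE1 and HSPA9 act in mitochondria and HSPB11 is a ciliary transport protein, so "cytosolic" does not hold for those members. Of the 40, 39 had at least 1 CPM (counts scaled to library size) in at least 2 libraries and were among the 12234 genes tested; the exception was HSPA1A. The cells were HEK293 T-REx Flp-In, a human embryonic kidney line, and in every library, the mock included, they carried an inserted FLAG:DICER1 copy. Cells were taken at 18 h after transfection, with 2 libraries given siRNAs against DICER1, 2 given siRNAs against DROSHA, and 1 mock-transfected control. Each library of a pair had a different siRNA, the labels do not name separate cultures, and p-values therefore measure only the spread between these libraries. DICER1 is the cytoplasmic nuclease that makes mature microRNAs, and DROSHA is the nuclear nuclease that acts before it. The design text gives the DROSHA knockdown and the mock as controls for the DICER1 knockdown.

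Chaperones help proteins to fold. HSP70 proteins (HSPA genes) bind unfolded stretches with the help of J-domain partners (DNAJ genes) and nucleotide exchange factors (BAG, HSPH and HSPA4 genes), and HSP90 takes over late clients with co-chaperones such as STIP1, CDC37, AHSA1 and PTGES3. TRiC is a ring-shaped chamber in which actin and tubulin fold. When misfolded protein builds up, the transcription factor HSF1 trimerises and binds heat shock elements, arrays of the unit GAA and its inverse TTC, in the promoters of the inducible genes.

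Heat shock elements are printed first because they are what HSF1 reads. The search took RefSeq promoter windows of build GRCh38.p14, from 250 bases before a start to 50 after it, and found 33 of the 40 members there. An element of 3 units was GAANNTTCNNGAA or its reverse complement TTCNNGAANNTTC, which covers both strands, and the 2 spellings overlap where 4 units follow each other. It occurred in 6 members, 3 of the 12 heat-inducible genes with a window and 3 of the 13 constitutive ones, and in 0 of the 7 TRiC subunits with a window. Of all genes with a window, 0.608% had such an element. HSP90AA1 and HSPD1 have 2 windows and HSP90AB1 has 3, set at different starts, and their other windows hold no match. The matches follow, 5′ to 3′ on the strand of the gene, with the element in capitals. Positions count from the start for which the matching window was taken.
HSP90AA1, chr14:102087112-102087140, minus strand, from -88: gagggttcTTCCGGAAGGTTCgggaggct
DNAJA1, chr9:33025274-33025292, plus strand, from 4: cgGAACTTTCCAGAAcgct
HSPD1, chr2:197500060-197500090, minus strand, from -245: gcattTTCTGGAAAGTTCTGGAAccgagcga
HSPA8, chr11:123062346-123062374, minus strand, from -230: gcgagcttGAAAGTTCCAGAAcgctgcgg
HSPA8, chr11:123062171-123062199, minus strand, from -55: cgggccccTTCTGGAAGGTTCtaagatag
HSP90AB1, chr6:44247770-44247798, plus strand, from -165: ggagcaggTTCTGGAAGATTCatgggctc
HSP90AB1, chr6:44247823-44247851, plus strand, from -112: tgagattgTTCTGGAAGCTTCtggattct
DNAJB6, chr7:157336865-157336893, plus strand, from -131: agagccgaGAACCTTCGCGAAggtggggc

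A looser element of 2 units, GAANNTTC or TTCNNGAA, which lies inside every 3-unit match, was held by 9 of 12 heat-inducible genes, 6 of 13 constitutive genes and 3 of 7 TRiC subunits, against 16.2% of all genes. HSPA1A and HSPA1B, the neighbouring copies of the stress-inducible HSP70, both had one. Their upstream stretches of 130 bases are shown with that element in capitals because the copies are close to identical, 121 of 129 aligned bases matching when shifted by 1.
HSPA1A, chr6:31815413-31815542, plus strand, from -106: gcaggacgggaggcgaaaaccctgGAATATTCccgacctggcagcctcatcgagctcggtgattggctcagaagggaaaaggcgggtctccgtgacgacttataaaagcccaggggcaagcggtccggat
HSPA1B, chr6:31827608-31827737, plus strand, from -105: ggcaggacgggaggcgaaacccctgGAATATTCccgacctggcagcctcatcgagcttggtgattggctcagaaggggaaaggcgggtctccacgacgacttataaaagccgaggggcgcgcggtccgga

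Total counts lay between 7620206 and 8736455 per library, and pairs of libraries differed by more than counting noise. The targeted mRNAs fit the labels: DICER1 fell to 74.0 and 67.7 CPM in the DICER1 libraries, against 242.9 CPM in the mock (edgeR adjusted p = 0.0260), and DROSHA fell to 41.2 and 41.9 CPM in the DROSHA libraries, against 191.3 CPM in the mock (adjusted p = 0.000882). In the DROSHA libraries DICER1 lay above the mock, at 281.9 and 332.4 CPM (log2 fold change 0.34 ± 0.12, edgeR adjusted p = 0.979). In the DICER1 libraries DROSHA was at 194.4 and 192.7 CPM. CPM here is scaled by library total and TMM factor. The epithelial keratins KRT8 and KRT18 had at least 428 counts in each library. Of the further markers listed for HEK cells, NEFL had 826 to 1455 counts, but PAX2 only 16 to 37 and NEFM 8 to 17. Of 14 markers of leukocytes, endothelium, fibroblasts and hepatocytes 13 were matched. Together they had 78 and 83 counts in the DICER1 libraries, 80 and 62 in the DROSHA libraries and 79 in the mock. Most of these were from COL1A1, at 42 to 58 counts per library, and CD14, at 13 to 22. PTPRC, COL1A2, DCN and TTR were at 0 in all 5.

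Differences among the chaperones were small, and after either knockdown more of them lay under the mock than over it. None of the 39 passed the 0.05 limit in edgeR's quasi-likelihood test after adjustment across all tested genes, in any of the 3 comparisons, and DESeq2 and edgeR's likelihood ratio test also called 0. The smallest adjusted p of a member was 0.865 in DICER1 against mock, 0.979 in DROSHA against mock and 0.455 between the knockdowns. The called genes were DICER1 alone in the first comparison, DROSHA alone in the second and both in the third, 0.00817%, 0.00817% and 0.0163% of tested genes. Before adjustment, at p under 0.05 in the quasi-likelihood test, 0 members were higher and 7 lower in DICER1 against mock, where 2.48% of all tested genes were higher and 2.98% lower, 5.46% in all. In DROSHA against mock 1 member was higher, STUB1, and 0 lower, where 2.07% of tested genes were higher and 1.62% lower, 3.69% in all. Between the knockdowns 0 members were higher and 6 lower after DICER1 siRNA, where 4.02% of tested genes were higher and 4.32% lower, 8.34% in all. These counts depended on the setting: with a library left out they ran from 2 to 15 members in DICER1 against mock, 0 to 8 in DROSHA against mock and 0 to 10 between the knockdowns, either direction. Scaling by library totals gave 3, 1 and 5 members, edgeR's likelihood ratio test 1, 0 and 1, and DESeq2 0 in each comparison. Values below are therefore descriptions of 5 libraries. In bulk RNA, fewer cells making a transcript and less of it per cell cannot be told apart.

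**Figure D1:**
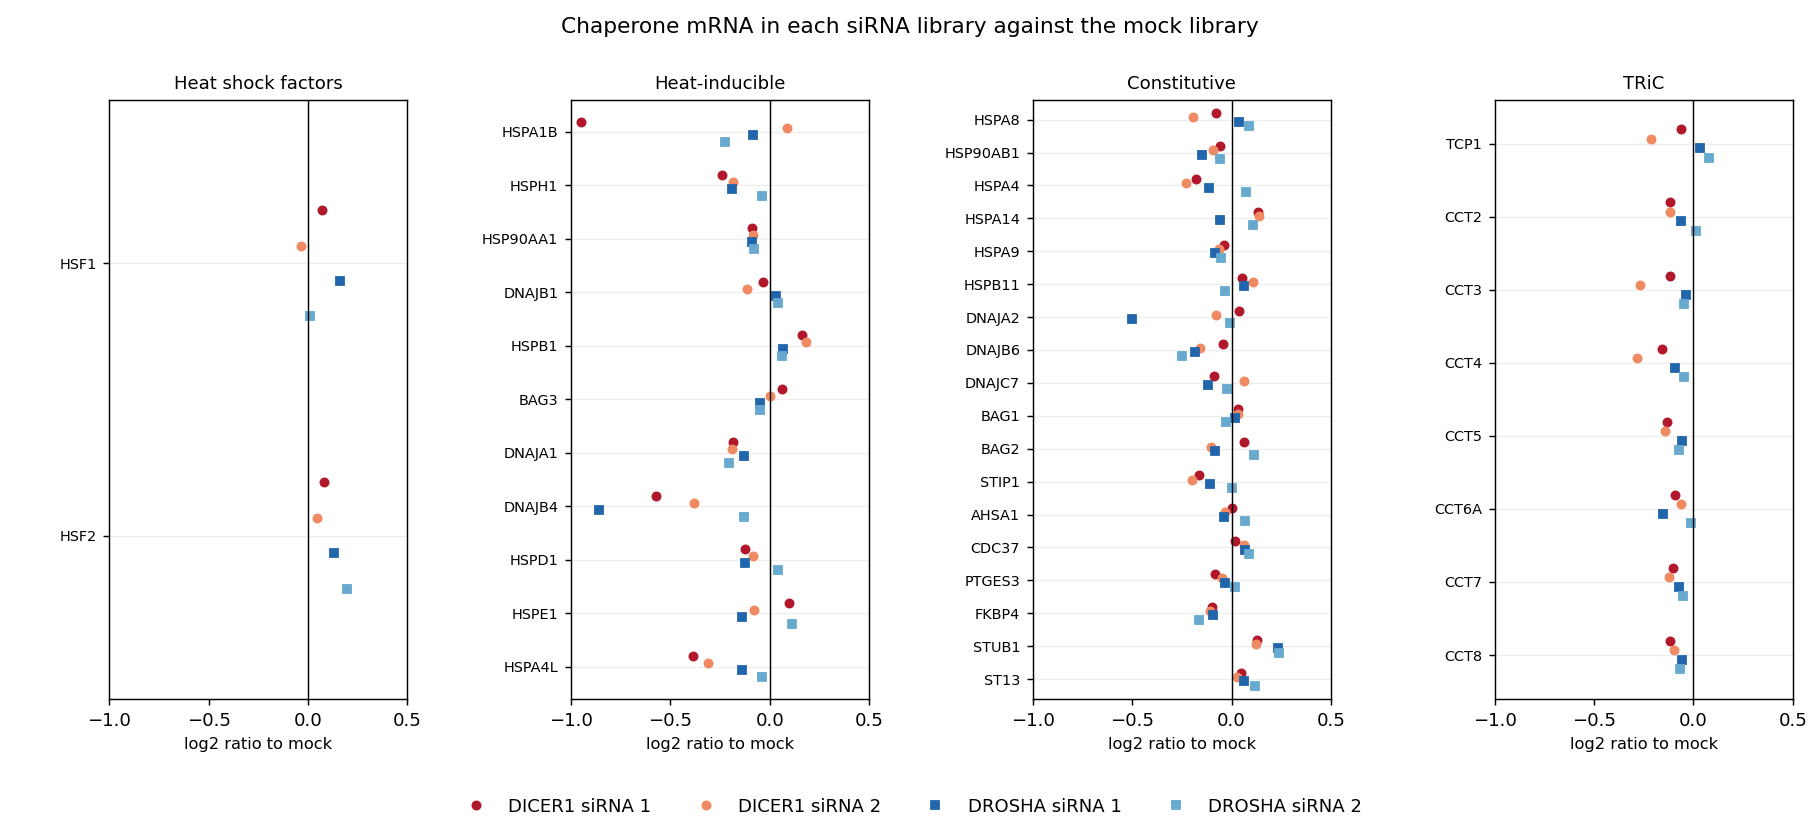
Log2 ratio of each siRNA library to the mock library for the 39 tested members, in 4 panels by class; circles are DICER1 siRNA 1 and 2, squares DROSHA siRNA 1 and 2, and the line at 0 is the mock. All 8 TRiC subunits lie left of the line in both DICER1 libraries, while the constitutive chaperones lie on both sides.

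The heat shock factors stood at or slightly above the mock. HSF1, the main stress-activated factor, had 74.6 and 69.3 CPM in the DICER1 libraries, 79.4 and 71.3 CPM in the DROSHA libraries and 70.8 CPM in the mock. The DICER1 libraries lie on either side of the mock, and both DROSHA libraries lie above it, the second by 0.01 on the log2 scale. HSF2, a related factor that can join HSF1 in mixed trimers, had 83.3 and 81.3 CPM after DICER1 siRNA, 86.4 and 90.4 CPM after DROSHA siRNA and 78.8 CPM in the mock. Its log2 fold change was 0.06 ± 0.10 (SE) in DICER1 against mock, 0.17 ± 0.10 in DROSHA against mock, and between the knockdowns it was -0.10 ± 0.08. HSF2 was the lowest in the mock and the groups do not overlap, yet each 95% interval includes 0.

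The heat-inducible class opens with a gap. HSPA1A, the textbook stress HSP70, was listed at 0 counts in all 5 libraries. Other widely used genes were also at or near 0, with 0 counts in each library for the prefoldin subunit PFDN6 and 2 to 8 for the tubulin TUBB, so the 0 is given as listed. BAG6 was low too, with 21 and 24 counts in the DICER1 libraries, 23 and 25 in the DROSHA libraries and 26 in the mock. HSPA1B had 17 and 40 counts in the DICER1 libraries, 37 and 30 in the DROSHA libraries and 38 in the mock. DICER1 siRNA 1 was the low library, and its log2 fold change in DICER1 against mock was -0.34 ± 0.43 with both DICER1 libraries and 0.09 without that one. In GENCODE 29 transcripts 72.6% of 50-base windows of HSPA1A also occur in HSPA1B, so reads of the copies are not separable over most of their length. The cause of the low counts was not tested.

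HSPA4L, an HSP110-type exchange factor for HSP70, had 74.9 and 79.2 CPM after DICER1 siRNA, 89.0 and 95.7 CPM after DROSHA siRNA and 98.2 CPM in the mock. The DICER1 libraries were the lowest pair and overlap neither the DROSHA libraries nor the mock. HSPA4L stood at -0.35 ± 0.10 in DICER1 against mock (edgeR adjusted p = 0.865), and at -0.26 ± 0.09 between the knockdowns (edgeR adjusted p = 0.531). HSPH1, the main cytosolic HSP110, had 233.5 and 242.2 CPM after DICER1 siRNA, 241.3 and 268.3 CPM after DROSHA siRNA and 275.5 CPM in the mock. The mock was highest, and DROSHA siRNA 1 fell among the DICER1 libraries. HSPH1 stood at -0.21 ± 0.09 in DICER1 against mock and -0.11 ± 0.09 in DROSHA against mock.

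HSP90AA1, the inducible HSP90, had 3291 and 3302 CPM after DICER1 siRNA, 3296 and 3316 CPM after DROSHA siRNA and 3505 CPM in the mock. All 4 siRNA libraries lay close to each other and under the mock. Its log2 fold change was -0.09 ± 0.04 in DICER1 against mock and -0.08 ± 0.04 in DROSHA against mock, and -0.0041 ± 0.03 between the knockdowns, with a 95% interval from -0.07 to 0.07. DNAJA1, a J-domain partner of HSP70 whose promoter window holds a 3-unit element, also lay under the mock, at 323.1 and 321.9 CPM after DICER1 siRNA, 334.9 and 318.7 CPM after DROSHA siRNA and 366.9 CPM in the mock. The mock stands apart from the other 4 libraries here too. DNAJA1 stood at -0.19 ± 0.07 in DICER1 against mock and -0.17 ± 0.07 in DROSHA against mock. The 1 mock library is shared by both comparisons, and whether it is itself high for these genes or all siRNA libraries are low cannot be told apart.

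DNAJB4, a low-level J-domain protein, had 10.7 and 12.3 CPM after DICER1 siRNA, 8.72 and 14.6 CPM after DROSHA siRNA and 16.0 CPM in the mock. The mock was highest and the DROSHA pair differed most between its own libraries. The log2 fold change was -0.48 ± 0.29 in DICER1 against mock and -0.47 ± 0.29 in DROSHA against mock, the second being -0.13 without DROSHA siRNA 1 and -0.88 without DROSHA siRNA 2. DNAJB1, a J-domain protein counted among the most heat-responsive genes, had 125.3 and 118.2 CPM after DICER1 siRNA, 130.9 and 131.7 CPM after DROSHA siRNA and 128.1 CPM in the mock. Its groups do not overlap, with DICER1 lowest, but the log2 fold change between the knockdowns was only -0.11 ± 0.08. HSPD1, the mitochondrial chaperonin, had 851.8 and 876.0 CPM after DICER1 siRNA, 851.2 and 956.9 CPM after DROSHA siRNA and 928.1 CPM in the mock. The DROSHA libraries span the mock, and the log2 fold change of -0.07 ± 0.06 between the knockdowns was 0.02 without DROSHA siRNA 2. HSPB1, BAG3 and HSPE1, the other inducible members, stood between -0.05 and 0.18 in both comparisons with the mock. HSPD1 and HSPE1 have 17 and 26 numbered pseudogenes in GENCODE 29, so their reads may be split among copies.

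In the constitutive class the HSP70-family genes HSPA8 and HSPA4 were lower in both DICER1 libraries than in both DROSHA libraries. HSPA14, of the same family, went the other way, with 149.9 and 150.5 CPM after DICER1 siRNA and 131.1 and 147.4 CPM after DROSHA siRNA. For HSPA9 the knockdowns overlapped, with a log2 fold change of 0.02 ± 0.05 between them. HSPA8, the housekeeping HSC70, had 1639 and 1516 CPM in the DICER1 libraries, 1775 and 1839 CPM in the DROSHA libraries and 1732 CPM in the mock. Both DICER1 libraries are under the mock and both DROSHA libraries above it. The log2 fold change was -0.20 ± 0.05 in DICER1 against DROSHA, the smallest p among the members (edgeR adjusted p = 0.455), -0.13 ± 0.06 in DICER1 against mock and 0.06 ± 0.06 in DROSHA against mock. Without DICER1 siRNA 2 the DICER1 against mock value was -0.08. HSPA8 has 17 numbered pseudogenes. HSPA4, another HSP110-type exchange factor, had 406.0 and 391.5 CPM after DICER1 siRNA, 423.9 and 482.3 CPM after DROSHA siRNA and 459.3 CPM in the mock. The DICER1 pair is lowest and the DROSHA pair spans the mock. Its log2 fold change in DICER1 against DROSHA was -0.18 ± 0.07 (edgeR adjusted p = 0.590), while leaving out DROSHA siRNA 1 gave -0.28 (adjusted p = 0.0374), in a fit that called 462 genes in place of 2, and leaving out DROSHA siRNA 2 gave -0.09 (adjusted p = 0.651). HSPA4 was the only member called under any setting tried.

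HSP90AB1 and its partners STIP1 and FKBP4 were lower in both DICER1 libraries than in the mock. PTGES3 was lower too, at 769.1 and 788.1 CPM after DICER1 siRNA against 816.2 CPM in the mock. Other HSP90 co-chaperones were not. CDC37 lay above the mock in all 4 siRNA libraries, with 346.0 and 356.9 CPM after DICER1 siRNA against 341.4 CPM. AHSA1 lay on both sides of the mock, at 177.6 and 173.5 CPM after DICER1 siRNA against 177.4 CPM. STIP1, the scaffold that joins HSP70 to HSP90, had 432.7 and 422.3 CPM after DICER1 siRNA, 448.7 and 484.6 CPM after DROSHA siRNA and 484.5 CPM in the mock. DICER1 was lowest, and DROSHA siRNA 2 lay next to the mock. The log2 fold change was -0.18 ± 0.07 in DICER1 against mock and -0.13 ± 0.06 in DICER1 against DROSHA, the second being -0.07 without DROSHA siRNA 2. FKBP4, an immunophilin that binds HSP90, had 591.3 and 588.5 CPM after DICER1 siRNA, 593.6 and 566.2 CPM after DROSHA siRNA and 633.5 CPM in the mock. All 4 siRNA libraries were under the mock, as they were for HSP90AB1, the constitutive HSP90. HSP90AB1 had 1786 and 1739 CPM after DICER1 siRNA, 1676 and 1785 CPM after DROSHA siRNA and 1857 CPM in the mock, a log2 fold change of -0.08 ± 0.05 in DICER1 against mock and -0.10 ± 0.05 in DROSHA against mock.

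STUB1, the ubiquitin ligase CHIP that tags chaperone-bound proteins for degradation, was the clearest member above the mock. It had 146.1 and 145.4 CPM after DICER1 siRNA, 156.9 and 157.6 CPM after DROSHA siRNA and 133.5 CPM in the mock. The 3 groups do not overlap and the mock is lowest. The log2 fold change was 0.24 ± 0.09 in DROSHA against mock (edgeR adjusted p = 0.979) and 0.13 ± 0.09 in DICER1 against mock. An exon of STUB1 is overlapped on the other strand by JMJD8, and how reads from the overlap were assigned is not known. DNAJB6, a J-domain protein that restrains aggregation, had 80.2 and 73.9 CPM after DICER1 siRNA, 72.7 and 69.4 CPM after DROSHA siRNA and 82.6 CPM in the mock, with every siRNA library under the mock. DNAJA2, singled out after its values were seen, had 113.1 CPM in DROSHA siRNA 1 alone, against 159.5 CPM in DROSHA siRNA 2, 164.8 and 151.9 CPM in the DICER1 libraries and 160.4 CPM in the mock. The other 10 constitutive members, HSPA14, HSPA9, CDC37, AHSA1 and PTGES3 among them, stood between -0.07 and 0.14 in DICER1 against mock. In DROSHA against mock they stood between -0.07 and 0.09.

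TRiC gave the most even pattern. Each of the 8 subunits was lower than the mock in both DICER1 libraries, where 36.4% of all tested genes were lower in both and 36.7% higher in both. The subunits had between 3933 and 10240 counts per library. CCT3 had 1110 and 1002 CPM after DICER1 siRNA, 1175 and 1167 CPM after DROSHA siRNA and 1206 CPM in the mock. CCT4 had 602.1 and 549.9 CPM after DICER1 siRNA, 630.1 and 649.9 CPM after DROSHA siRNA and 670.7 CPM in the mock. CCT5 had 833.2 and 828.9 CPM after DICER1 siRNA, 879.1 and 867.8 CPM after DROSHA siRNA and 913.8 CPM in the mock. In these 3 subunits the order is the same, DICER1 lowest, DROSHA between and the mock highest, with no overlap. The same order held for CCT7, at 891.4 and 881.2 CPM after DICER1 siRNA, 910.0 and 924.3 CPM after DROSHA siRNA and 958.2 CPM in the mock. It also held for CCT8, at 654.0 and 663.5 CPM after DICER1 siRNA, 682.1 and 678.5 CPM after DROSHA siRNA and 710.1 CPM in the mock.

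The other TRiC subunits departed from that order on the DROSHA side. TCP1 had 641.4 and 576.8 CPM after DICER1 siRNA, 684.2 and 706.6 CPM after DROSHA siRNA and 669.4 CPM in the mock, so that both DROSHA libraries lay above the mock. CCT2 had 694.9 and 694.4 CPM after DICER1 siRNA, 720.5 and 759.2 CPM after DROSHA siRNA and 753.1 CPM in the mock, a mock value between the DROSHA libraries. CCT6A had 514.4 and 524.7 CPM after DICER1 siRNA, 492.1 and 542.9 CPM after DROSHA siRNA and 547.6 CPM in the mock, and here the DICER1 libraries lie inside the DROSHA pair. TCP1 has an exon overlapped on the other strand by ACAT2, as CCT4 has by AC107081.2 and CCT5 by AC012640.4. Of all members, 12 have an exon overlapped by another gene on the other strand.

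**Figure D2:**
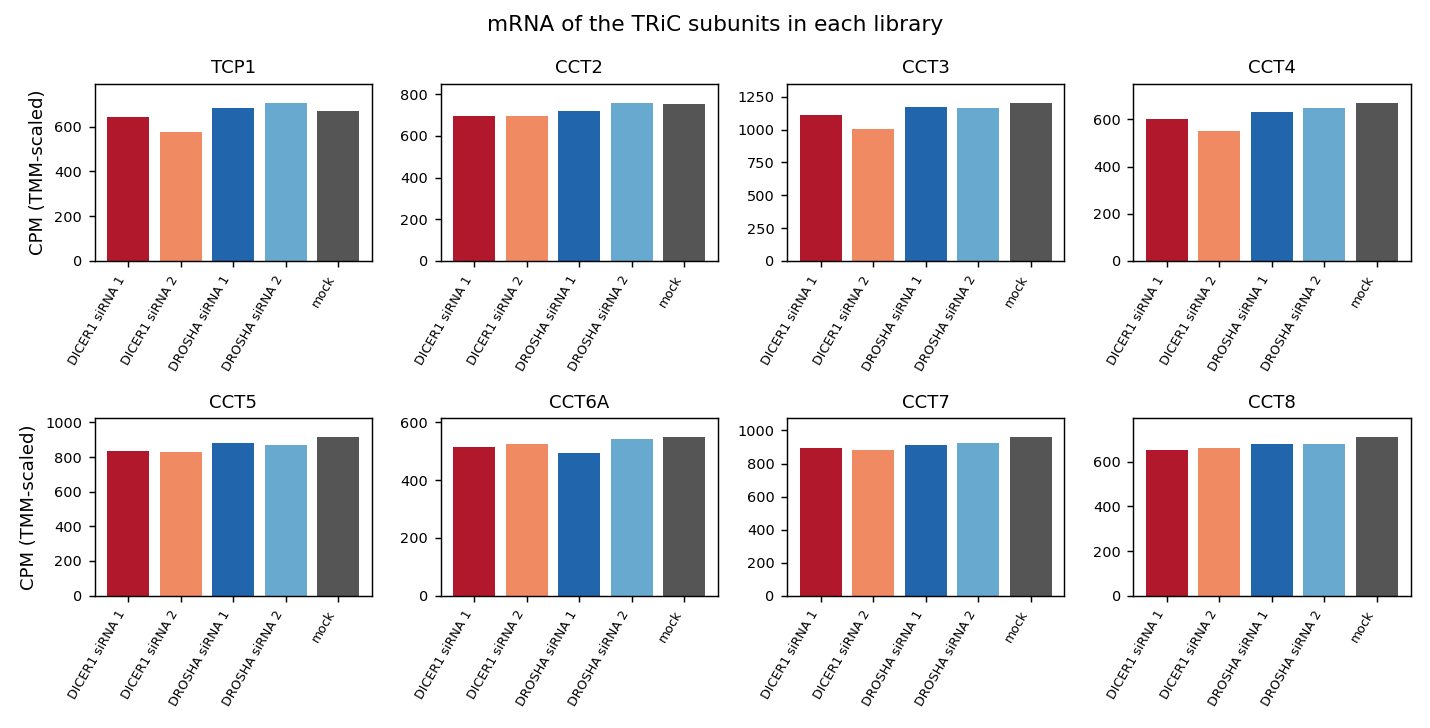
CPM (scaled by library total and TMM factor) of the 8 TRiC subunits, 1 panel each, with bars for DICER1 siRNA 1 and 2, DROSHA siRNA 1 and 2 and the mock from left to right, axes starting at 0; each bar is 1 library. In every panel both DICER1 bars are lower than the mock bar, down to a log2 ratio of -0.29 for CCT4 in DICER1 siRNA 2.

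In fold changes, TRiC stood between -0.22 and -0.08 in DICER1 against mock, with CCT4 at -0.22 ± 0.07 and CCT3 at -0.19 ± 0.07 at the low end. In DROSHA against mock the subunits stood between -0.08 and 0.05. Compared directly, 7 of 8 subunits were lower in both DICER1 libraries than in both DROSHA libraries and 0 were higher. Over all tested genes 20.0% were lower in that sense and 20.9% higher. TCP1 stood at -0.19 ± 0.06 (edgeR adjusted p = 0.532), CCT4 -0.15 ± 0.06 and CCT3 -0.15 ± 0.06, and CCT6A stood at 0.0059 ± 0.06. For TCP1, CCT4 and CCT3, DICER1 siRNA 2 was clearly the lower library, whereas for CCT6A and CCT8 DICER1 siRNA 1 was lower. Without DICER1 siRNA 2, TCP1 stood at -0.12, CCT4 at -0.09 and CCT3 at -0.08 between the knockdowns. In DICER1 against mock CCT3 then stood at -0.12 and TCP1 at -0.06. Summed over the subunits, TRiC held 5941 and 5721 CPM after DICER1 siRNA, 6173 and 6296 CPM after DROSHA siRNA and 6429 CPM in the mock. The DICER1 mean was 90.7% of the mock and 93.5% of the DROSHA mean, sums for which no test was made. The median subunit stood at -0.12 in DICER1 siRNA 1 and -0.13 in DICER1 siRNA 2, and at -0.06 and -0.05 in DROSHA siRNA 1 and 2, each against the mock.

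**Figure D3:**
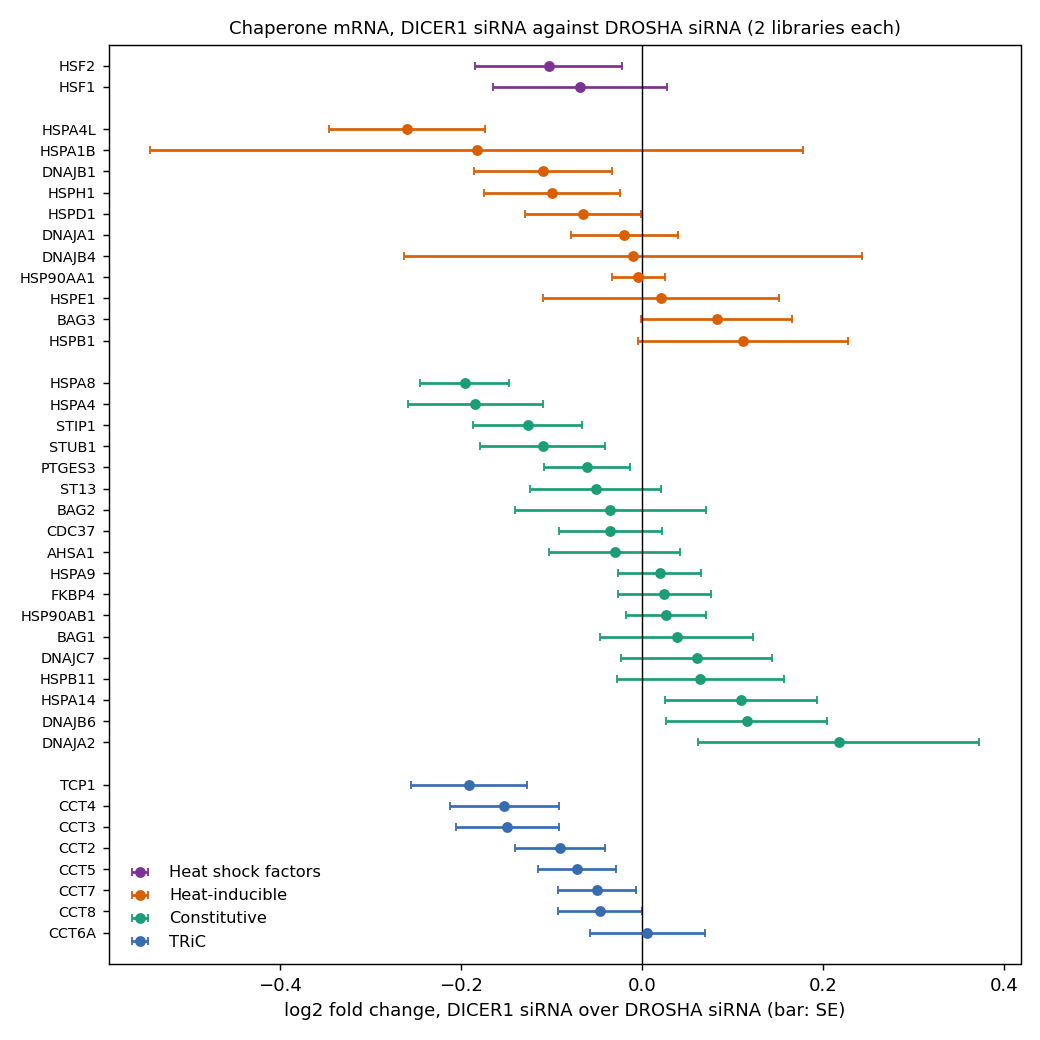
Log2 fold change of DICER1 siRNA over DROSHA siRNA (2 libraries each) for the 39 tested members, grouped by class and ordered within it; bars are standard errors from edgeR's fit. Apart from CCT6A at 0.0059, TRiC points lie left of 0, down to -0.19 for TCP1, while heat-inducible and constitutive points fall on both sides.

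The classes are set side by side with the shares over all tested genes. In DICER1 against mock, where 36.4% of all tested genes were lower in both libraries and 36.7% higher, the heat-inducible class had a median log2 fold change of -0.10, with 7 of 11 tested members lower and 2 higher. The constitutive class had a median of -0.02, with 8 of 18 lower and 6 higher, and TRiC a median of -0.13, with 8 lower and 0 higher. The median of all tested genes was 0.0005. In DROSHA against mock, where 32.4% of all tested genes were lower in both libraries and 31.5% higher, the heat-inducible class had a median of -0.08 with 7 lower and 2 higher. There the constitutive class stood at -0.0067 with 6 lower and 4 higher, and TRiC at -0.06 with 6 lower and 1 higher. In DICER1 against DROSHA, where 20.0% of all tested genes were lower and 20.9% higher, the heat-inducible median was -0.02, with 2 lower and 2 higher, the constitutive median -0.0054, with 7 lower and 3 higher, and the TRiC median -0.08. Single libraries weighed on these medians: the heat-inducible median between the knockdowns was -0.11 without DROSHA siRNA 1 and 2e-04 without DROSHA siRNA 2. In DROSHA against mock it was -0.04 without DROSHA siRNA 1 and -0.12 without DROSHA siRNA 2. The constitutive median was -0.06 in DICER1 against mock without DICER1 siRNA 1, and -0.07 in DROSHA against mock without DROSHA siRNA 2. Below the mock in all 4 siRNA libraries were 5 heat-inducible, 4 constitutive and 6 TRiC genes, or 15 of the 39, and 5 of the 39 were above it in all 4. Over all tested genes 19.0% were below and 19.4% above in all 4. Differences between the classes were not tested, and since the members share libraries and, within TRiC, a complex, they are not independent.

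Per length, the chaperones spanned a wide range while TRiC subunits stayed close together. Levels were set per kb of exon in GENCODE 29, which need not match the gene models behind the counts. HSP90AA1 was highest in every library, at 817.3 and 820.1 CPM per kb after DICER1 siRNA, 818.6 and 823.5 after DROSHA siRNA and 870.4 in the mock. HSPA8 and HSP90AB1 followed, at 641.7 and 623.1 CPM per kb in the mock, and they changed places in DICER1 siRNA 2. The lowest tested member was HSPA1B, at 1.79 CPM per kb in the mock, but its reads are not separable from those of HSPA1A over most of their length. Low counts were also listed for PFDN6, TUBB and BAG6, and the cause was not tested, so the HSPA1B level is given as listed. DNAJB4 was the next lowest tested member, at 5.37 CPM per kb in the mock. TRiC spanned only 2.59-fold and 2.29-fold in the DICER1 libraries, 2.87-fold and 2.58-fold in the DROSHA libraries and 2.65-fold in the mock, with CCT3 highest and CCT6A lowest in each. The order of the 8 subunits per kb was the same in 4 libraries, and in DROSHA siRNA 2 CCT2 and CCT8, neighbours in that order, changed places.

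**Figure D4:**
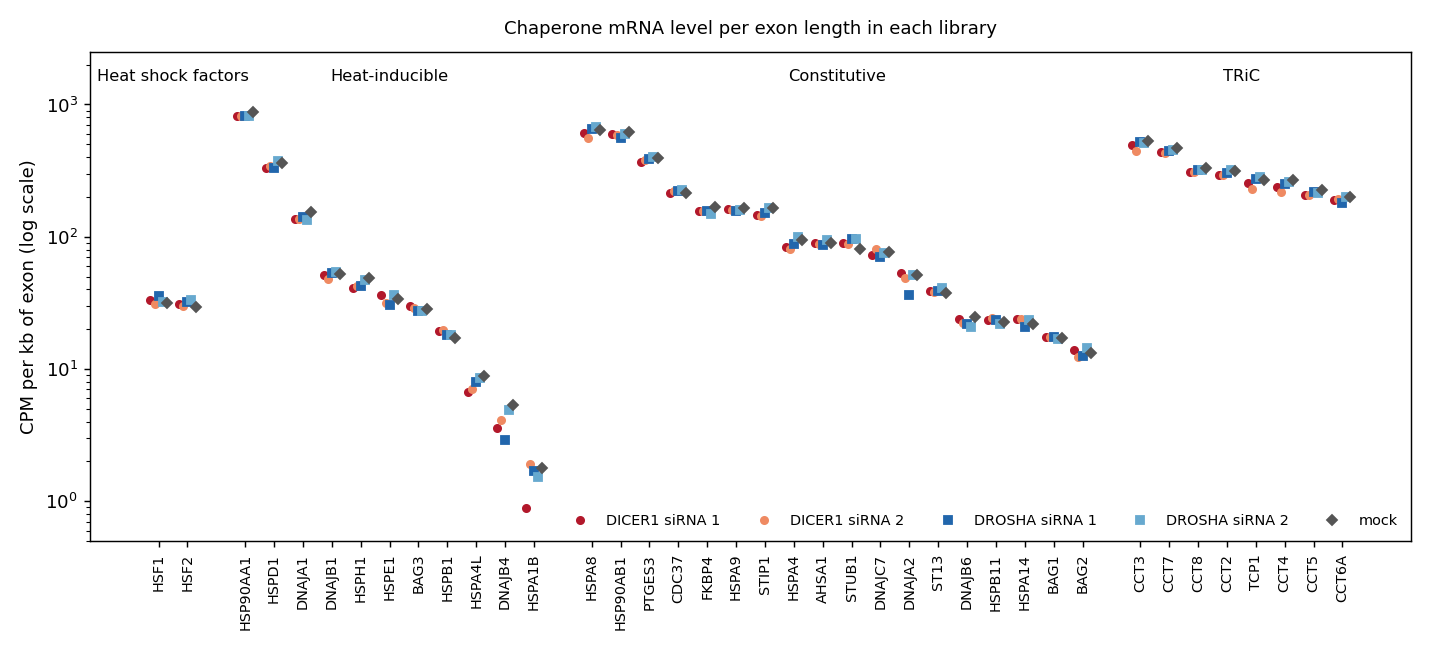
CPM per kb of exon on a log axis for the 39 tested members, by class and, within a class, by the level in the mock; circles are DICER1 libraries, squares DROSHA libraries and diamonds the mock. TRiC subunits sit between 181 and 533 CPM per kb, whereas heat-inducible genes run from 0.88 for HSPA1B to 870.4 for HSP90AA1. Reads of HSPA1B are not separable from those of HSPA1A over most of their length, and the cause of its low counts was not tested. DNAJB4 is next lowest in the mock, at 5.37.

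Set against the printed promoter elements, the 6 members with a 3-unit element stood between -0.19 and -0.08 in DICER1 against mock, and between -0.22 and 0.06 in DROSHA against mock. In DICER1 against mock all 6 were lower in both libraries, against 36.4% of all tested genes. In DROSHA against mock 4 were lower and 1 higher, where 32.4% of all tested genes were lower and 31.5% higher. The medians of the 6 were -0.10 and -0.09. The 26 tested members with a window and no such element had medians of -0.09 and -0.05 and wider ranges, from -0.48 to 0.18 and from -0.47 to 0.17. In DICER1 against mock 15 of them were lower and 5 higher, and in DROSHA against mock 13 were lower and 5 higher. The 7 members without a window had a median of 0.04 in DICER1 against mock, with 2 lower and 4 higher. Between the knockdowns the 6 members stood at a median of -0.01, with 1 lower and 1 higher, where 20.0% of all tested genes were lower and 20.9% higher. The 7 TRiC subunits with a window are all in the second set, and members under the mock stood in both sets. A missing match says only that these letters are not in that window.

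The surrounding folding machinery was read from 4 further lists of genes. Of their tested genes 0 passed edgeR's quasi-likelihood test in any comparison. Of 37 further chaperone-related genes, among them the heat shock regulators HSF4 and HSBP1, 29 were tested, with a median of -0.06 in DICER1 against mock, -0.05 in DROSHA against mock and -0.0091 between the knockdowns. CDC37L1, a relative of the kinase co-chaperone CDC37, had 22.8 and 21.5 CPM after DICER1 siRNA, 20.1 and 28.3 CPM after DROSHA siRNA and 15.2 CPM in the mock, which was lowest. Its log2 fold change was 0.54 ± 0.23 in DICER1 against mock and 0.66 ± 0.23 in DROSHA against mock, and leaving out DROSHA siRNA 1 the second was 0.89 (edgeR adjusted p = 0.0410), in a fit that called 233 genes in place of 1. Leaving out DROSHA siRNA 2 it was 0.40 (edgeR adjusted p = 0.796). NUDC, an HSP90-linked chaperone, had 306.9 and 292.5 CPM after DICER1 siRNA, 272.4 and 261.3 CPM after DROSHA siRNA and 317.9 CPM in the mock, with both DROSHA libraries lowest. It stood at -0.25 ± 0.08 in DROSHA against mock and at 0.17 ± 0.06 between the knockdowns. Among these 29 genes 3 were higher and 0 lower in DICER1 against DROSHA without overlap, where 20.9% of all tested genes were higher and 20.0% lower. The J-domain protein DNAJB5 had 49 and 92 counts after DICER1 siRNA and 46 in the mock, and stood at 0.68 ± 0.37 in DICER1 against mock. Its value was 1.01 without DICER1 siRNA 1 and 0.23 without DICER1 siRNA 2. FKBP5, an immunophilin of HSP90, stood at 0.21 ± 0.09 between the knockdowns, and at 0.11 without DROSHA siRNA 2.

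The mitochondrial chaperones and proteases, 10 tested genes, had medians of -0.0051, 0.02 and 0.01 in the 3 comparisons, taken in the order used above. CLPP, the protease subunit of the matrix, had 111.0 and 101.8 CPM after DICER1 siRNA, 125.5 and 121.1 CPM after DROSHA siRNA and 117.1 CPM in the mock. The mock lies between the pairs, and the log2 fold change was -0.21 ± 0.08 in DICER1 against DROSHA. Of 10 genes listed beside TRiC, which are prefoldin subunits, phosducin-like proteins and the TRiC paralogue CCT6B, 9 were tested, with medians of -0.07, 0.02 and -0.02. The prefoldin subunit PFDN2 stood at -0.16 ± 0.10 in DICER1 against mock and -0.19 ± 0.09 in DICER1 against DROSHA, and the phosducin-like PDCL at -0.34 ± 0.16 in DROSHA against mock, with -0.52 without DROSHA siRNA 1 and -0.18 without DROSHA siRNA 2. Prefoldin passes unfolded actin and tubulin to TRiC, and TRiC's own medians of -0.13, -0.06 and -0.08 stand beside these.

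Actins and tubulins, the best-known TRiC substrates, gave 10 tested genes with medians of -0.07, -0.03 and -0.03. TUBB6 had 122.7 and 110.7 CPM after DICER1 siRNA, 117.1 and 107.5 CPM after DROSHA siRNA and 135.2 CPM in the mock, with the mock highest. Its log2 fold change was -0.21 ± 0.11 in DICER1 against mock and -0.27 ± 0.11 in DROSHA against mock, the first being -0.14 without DICER1 siRNA 2. TUBB4B, an abundant beta-tubulin, had 684.5 and 611.6 CPM after DICER1 siRNA and 719.7 CPM in the mock, and stood at -0.15 ± 0.08 in DICER1 against mock. Its value was -0.24 without DICER1 siRNA 1 and -0.07 without DICER1 siRNA 2. TUBB3, the beta-tubulin typical of neurons, went the other way, at 21.3 and 24.1 CPM after DICER1 siRNA, 17.4 and 16.2 CPM after DROSHA siRNA and 19.5 CPM in the mock. Between the knockdowns TUBB3 stood at 0.43 ± 0.13 (edgeR adjusted p = 0.504) and its relative TUBB2B at 0.38 ± 0.14. Leaving out DROSHA siRNA 1, TUBB2B stood at 0.60 (edgeR adjusted p = 0.0306), in a fit that called 462 genes in place of 2, and leaving out DROSHA siRNA 2 at 0.19 (edgeR adjusted p = 0.592).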

How the data were processed

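The authors deposited raw read counts per gene symbol. The submitters' processing notes list the build hg19 and the tools HTSeq, STAR, edgeR and CASAVA 1.8.2, without roles or order, and the strand setting of the counting is not stated there. Of 18257 genes 2602 had no read. Columns were matched to samples by name, the control column to the only mock library, and 0 were unused. Genes reaching 1 CPM in 2 or more libraries were tested with edgeR 4.0.16 in R 4.3.3, using TMM factors, the quasi-likelihood F test on group with all 5 libraries in one fit, and Benjamini-Hochberg adjustment over 12234 genes, called under 0.05. With 1 mock, the spread comes from the siRNA pairs (2 residual degrees of freedom). Standard errors are the log2 fold change over the root of F. Ratios of single libraries used log2 CPM with a prior count of 2. "Lower in both" means that the groups did not overlap. Only the edgeR test was tried on simulated counts, with planted changes larger than most seen among the members. Class medians, overlap counts and the promoter search were not simulated.

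Members, classes and lists were chosen with earlier results of these data known. Full values are given for HSF1, HSF2, HSPA1A, HSPA1B, TRiC and, per comparison, the 4 heat-inducible and 4 constitutive members with the smallest p; from other lists, up to 2 genes each. Alternatives were DESeq2 1.42.0, edgeR's likelihood ratio test, other scalings and filters, each siRNA library left out, and the siRNA number as a block. 1 further result is not reported here.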

Additional observations from a re-analysis of the deposited data

How the results depend on the processing

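With 1 mock and pairs of siRNAs, power is low, and the number of genes called moved with the method. In DICER1 against mock it was 1, with 3 without a filter on low counts, 5 by DESeq2, 29 by edgeR's likelihood ratio test and 0 to 7 with 1 siRNA library left out. In DROSHA against mock it was 1, with 3 by the likelihood ratio test and 1 to 233 with a library left out, 233 without DROSHA siRNA 1 and 20 without DROSHA siRNA 2. Between the knockdowns it was 2, with 12 without a filter, 24 by DESeq2, 130 by the likelihood ratio test and 1 to 462 with a library left out, 462 without DROSHA siRNA 1, 33 without DROSHA siRNA 2 and 5 without DICER1 siRNA 1. Where a group keeps 1 library, that library is assumed to vary like the others. Members called stayed at 0 in every setting but 1, the range being 0 to 1 between the knockdowns, with HSPA4 called without DROSHA siRNA 1. The cause was not tested.

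Some class medians moved as well. Scaling by library totals alone gave TRiC -0.1072 in DICER1 against mock and -0.0466 in DROSHA against mock, and all members -0.0566 in DICER1 against mock, where no filter gave -0.081. Library totals moved the median of all tested genes up as well. It went from 5e-04 to 0.0197 in DICER1 against mock and from -0.0049 to 0.011 in DROSHA against mock. With a library left out, DICER1 against mock ran from -0.0593 to -0.0181 for the constitutive class and from -0.0891 to -0.0758 for all members. DROSHA against mock ran from -0.0703 to 0.0064 for the constitutive class and from -0.0637 to -0.0494 for TRiC. Between the knockdowns the heat-inducible median ran from -0.1059 to 2e-04 and that of all members from -0.0797 to -0.0231.

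Single genes whose sign turned did so only when a library was left out. In DICER1 against mock HSF1 ran from -0.0356 to 0.074 and HSPA1B from -1.0171 to 0.0874, and in DROSHA against mock CCT2 ran from -0.0639 to 0.0089. Between the knockdowns HSF1 ran from -0.1437 to 0.0102, HSPA1B from -0.8574 to 0.2482, CCT6A from -0.0638 to 0.0786 and HSPD1 from -0.1479 to 0.0213.

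The siRNA numbers are not a pairing by design, and deviations of same-numbered libraries correlated at 0.0243 across 12234 genes. With that number as a block between the knockdowns, 3 genes were called, 0 of them members, and the TRiC median was -0.0831.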
